A study of Homo sapiens with 16 samples.

Results

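ISG15 and 5 genes of its conjugation pathway, USP18, UBA7, UBE2L6, HERC5 and HERC6, were followed across 16 libraries of 2 human glioblastoma cell lines, U251 and U343. The 6 genes were taken by symbol from the deposited read counts, in which they were 6 of 20314 genes in U251 and 6 of 20626 in U343. They were proposed as a set with their response to the miR-137 mimic already known, so their changes and calls between miR-137 and control are given as a description and support nothing. Both lines received either of 2 mimics, miR-137 or a control, by reverse transfection with RNAiMax (25 nM), and total RNA was collected after 48 hours. RNASeq measured total RNA, and RIPSeq measured RNA recovered with antibodies against the poly(A) binding protein PABP. Each line was measured by both assays after both transfections, in 2 libraries per group: U251 and U343, RNASeq and RIPSeq, control and miR137. All libraries were depleted of rRNA. Those of U251 were made by random hexamer priming and those of U343 with a TotalScript kit, so the cell line and the library method cannot be told apart. A mimic was added to whole dishes of an established line, and its level in the cells is not among the values used here. The labels do not state that replicates were separate cultures, so p-values measure only the spread between these libraries.

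ISG15 is a ubiquitin-like protein that is attached to other proteins after interferon stimulation, and it is also released in free form. UBA7 activates it as the E1 enzyme, UBE2L6 carries it as the E2 enzyme, and HERC5 is the main human E3 ligase. HERC6 is a close relative of HERC5 and serves as the E3 ligase in mice. USP18 removes ISG15 from its targets and also binds the interferon receptor chain IFNAR2, where it dampens signalling. Genes of this pathway are known to be switched on by interferon through a response element in their promoters.

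The positions in hg18, the build of the deposited counts, were chromosome 1, 938710 to 939782, for ISG15 and chromosome 22, 17012758 to 17040162, for USP18. UBA7 lay on chromosome 3, 49817642 to 49826395, and UBE2L6 on chromosome 11, 57075705 to 57092029. HERC6 (89518915 to 89583272) and HERC5 (89597291 to 89646337) were neighbours on chromosome 4, with 14018 bases between them. Reads were counted over the whole transcript of each gene, and none of the 6 overlapped another listed gene. USP18 has a near-identical copy in the genome, and the sources used here do not say how reads matching several places were counted, so its counts are less certain.

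The promoters of ISG15 and HERC5 are shown because they hold the response element letters, together with the miRNA whose mimic was transfected. The windows run from 250 bases before to 50 bases after the RefSeq start in GRCh38.p14, where ISG15 covers chr1:1013247-1013546 on the plus strand and HERC5 covers chr4:88456869-88457168 on the plus strand. Mature hsa-miR-137-3p comes from chr1:98046091-98046113 on the minus strand, and the letters of the mimic itself are not given in the sources used here. Capitals mark matches to the motif GAAANNGAAA on either strand in the promoters, and the seed (bases 2 to 8) in the miRNA.
ISG15 promoter: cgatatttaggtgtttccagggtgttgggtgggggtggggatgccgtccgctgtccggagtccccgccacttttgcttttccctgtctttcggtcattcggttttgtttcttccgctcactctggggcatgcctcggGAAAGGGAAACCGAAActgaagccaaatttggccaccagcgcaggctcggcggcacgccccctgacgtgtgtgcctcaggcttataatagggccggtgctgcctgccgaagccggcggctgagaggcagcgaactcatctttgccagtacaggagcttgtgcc
HERC5 promoter: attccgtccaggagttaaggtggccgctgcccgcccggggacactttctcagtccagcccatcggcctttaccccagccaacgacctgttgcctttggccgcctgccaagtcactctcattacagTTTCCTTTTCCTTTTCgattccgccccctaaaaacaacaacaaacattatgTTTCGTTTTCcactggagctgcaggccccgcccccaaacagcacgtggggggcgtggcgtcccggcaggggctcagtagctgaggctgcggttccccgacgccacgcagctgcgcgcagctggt
hsa-miR-137-3p: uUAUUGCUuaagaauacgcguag
The motif was found 2 times in the ISG15 window, at -113 to -104 and, overlapping it, at -107 to -98 relative to the start. In the HERC5 window it was found 3 times on the opposite strand, at -125 to -116, -119 to -110 and -74 to -65, of which the first 2 overlap. It was not found in the windows of HERC6 or UBE2L6. Sequence windows were matched for 4 of the 6 genes. Of 35116 promoter windows of the same length, 1255 (3.57%) held the motif, 91 (0.259%) held it 2 or more times and 13 (0.037%) held it 3 or more times. A match describes letters and not binding.

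Total counted reads ranged from 10156675 to 18224061 per library in U251 RNASeq, from 22359794 to 30731476 in U251 RIPSeq and from 37736206 to 45134766 in U343. Levels below are CPM, read counts scaled to a common library total with TMM factors over the 16 libraries, which compare 1 gene between libraries. They are not divided by transcript length, so they do not rank the genes against each other. No replicate pair agreed within sampling noise, and the pairs farthest apart were the U251 RIPSeq controls and the U343 RNASeq miR137 libraries. The glioma markers VIM (3105 to 10730 CPM), NES (113 to 485 CPM) and CD44 (772 to 7476 CPM) were present in every library. GFAP was 3254 to 8129 CPM in U343 and 3.11 to 31.6 CPM in U251, and AQP4 did not exceed 0.737 CPM in U251. SOX2 was at least 65.9 CPM, and S100B did not exceed 1.71 CPM in U251 and 10.6 CPM in U343. In U251 the 7 glioma markers summed to 11619 to 12051 CPM in RNASeq controls and 5375 to 5752 CPM with miR-137. In RIPSeq they summed to 10057 to 16291 and 8276 to 8374 CPM. In U343 the sums were 11510 to 12326 and 12519 to 13708 CPM in RNASeq, and 16780 to 17998 and 15880 to 17765 CPM in RIPSeq. Of the leukocyte and microglia markers PTPRC did not exceed 0.667 CPM, CD14 1.66 CPM and ITGAM 1.61 CPM, whereas CD68 reached 104 CPM in U251 and 120 CPM in U343. The epithelial marker EPCAM did not exceed 0.197 CPM. CDH1, however, was present in every U343 library (62.4 to 127 CPM) and KRT18 in every U251 library (66.4 to 176 CPM). Of the endothelial markers VWF was at 6.40 to 29.2 CPM and CDH5 at 7.93 to 34.0 CPM in U343. The neuronal marker SYT1 was at 9.94 to 33.3 CPM in U251. In such bulk samples, fewer cells of a type and less RNA per cell cannot be told apart.

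One library has to be set apart before the results. In the library labelled U343 RNASeq miR137 replicate 1, the 6 genes together took 0.0212% of the reads, between the 0.0212% and 0.0214% of the 2 controls, against 0.399% in replicate 2. The exact 95% intervals of these shares, which cover counting error only, were 0.0208 to 0.0217% and 0.397 to 0.401%. Genes that the miR-137 mimic lowered more than 2-fold in both U251 RNASeq and U343 RIPSeq, the 6 genes excluded, were low in both libraries. Over these 362 genes the median log2 difference from the controls was -1.11 in replicate 1 and -1.25 in replicate 2. Over the 530 genes raised by the same rule, it was 0.45 in replicate 1 and 1.60 in replicate 2. This library therefore carried the lowered genes of its label but not the level of the 6 genes seen in the other miR137 libraries, and each U343 RNASeq result is given with and without it.

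**Figure D1:**
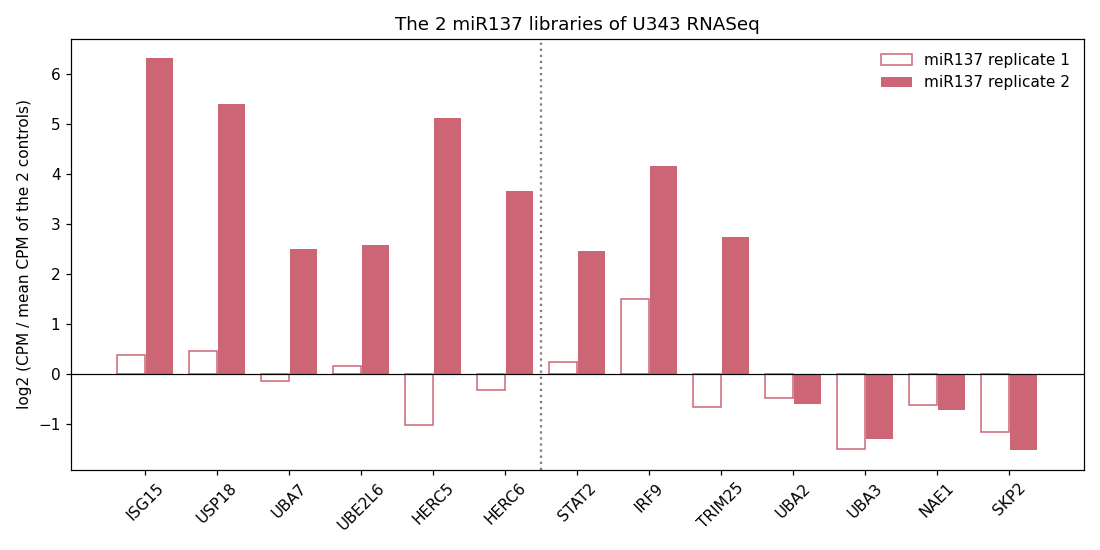
Each bar is the log2 ratio of the CPM in 1 miR137 library of U343 RNASeq to the mean CPM of the 2 control libraries, for the 6 genes (left of the dotted line) and for 7 related genes. Filled bars (replicate 2) reach 6.32 for ISG15 while open bars (replicate 1) lie between -1.02 and 0.45 for the 6 genes. Both bars fall below 0 for UBA2, UBA3, NAE1 and SKP2, which were named for calls that included this comparison with both libraries.

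Among genes outside the set, UBA3, part of the NEDD8-activating enzyme, read 80.9 and 85.7 CPM in the U343 RNASeq controls, 29.5 CPM in miR137 replicate 1 and 34.0 CPM in replicate 2. SKP2, an F-box protein known to target USP18, had control levels of 64.7 and 74.4 CPM and miR137 levels of 31.2 and 24.2 CPM. Both genes were low in both miR137 libraries. They are named for calls that included U343 RNASeq with both libraries, so their low level here followed in part from that choice and is descriptive. IRF9 read 10.6 and 10.7 CPM in the controls, 30.3 CPM in replicate 1 and 192 CPM in replicate 2. IRF9 was thus above the controls in replicate 1, by 2.85-fold, though far below replicate 2.

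The 6 genes were higher with miR-137 in U251 total RNA, U251 PABP-bound RNA and U343 PABP-bound RNA. By edgeR's quasi-likelihood test with Benjamini-Hochberg adjustment over all genes tested, at a threshold of 0.05, 6 of 6 were called higher in U251 RNASeq, where 28.7% of genes tested were called higher. In U251 RIPSeq 6 of 6 were called, against 0.944% of genes, and in U343 RIPSeq 6 of 6, against 28.5%. In U343 RNASeq none of the 6 was called by edgeR, where 8.31% of genes were called higher, although 2 passed before adjustment. DESeq2 called 2 there, against 9.56% of genes called higher. Without miR137 replicate 1, 6 of 6 were called there, against 19.3% of genes, with the lone remaining library assumed to vary like the controls. All 6 passed the filter on low counts in every comparison. Since the set was chosen on this contrast, these counts are descriptive. The median log2 change of the 6 was 4.61 in U251 RNASeq, 5.08 in U251 RIPSeq and 4.62 in U343 RIPSeq, and that of all genes tested was 0.02, -0.02 and 0.00. In U343 RNASeq it was 3.47, and 4.41 without replicate 1.

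CD68, a lysosomal membrane protein used as a macrophage and microglia marker, moved with the 6 genes. It read 7.27 and 10.1 CPM in U251 RNASeq controls and 80.3 and 75.0 CPM with miR-137, and 16.0 and 15.3 CPM and then 92.1 and 104 CPM in U251 RIPSeq. In U343 RIPSeq it read 3.91 and 3.24 CPM in controls and 120 and 99.0 CPM with miR-137. In U343 RNASeq the controls were at 3.79 and 3.55 CPM, replicate 1 of miR137 at 4.63 CPM and replicate 2 at 33.3 CPM. The summed level of the 4 markers of this list in the tables, of 5 listed, was 8.49 to 10.3 CPM in controls and 76.4 to 82.5 CPM with miR-137 in U251 RNASeq, and 16.4 to 18.4 and 94.4 to 106 CPM in U251 RIPSeq. In U343 it was 4.25 to 5.57 and 5.72 to 33.8 CPM in RNASeq, and 4.59 to 4.86 and 99.9 to 121 CPM in RIPSeq. Of the 4 markers, 3 were higher with miR-137 without overlap between groups in U251 RNASeq, 2 in U251 RIPSeq and 2 in U343 RNASeq, and 0 were lower. In U343 RIPSeq 2 were higher and 2 lower, so the markers did not all move with CD68. The share of all genes without overlap was not computed, and CD68 was named after its values were seen. The summed level was mostly CD68, though less so in U343 RNASeq controls than with miR-137 in U251. PTPRC, which defines leukocytes, stayed at or under 0.667 CPM in every library, a level near the floor of counting.

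**Figure D2:**
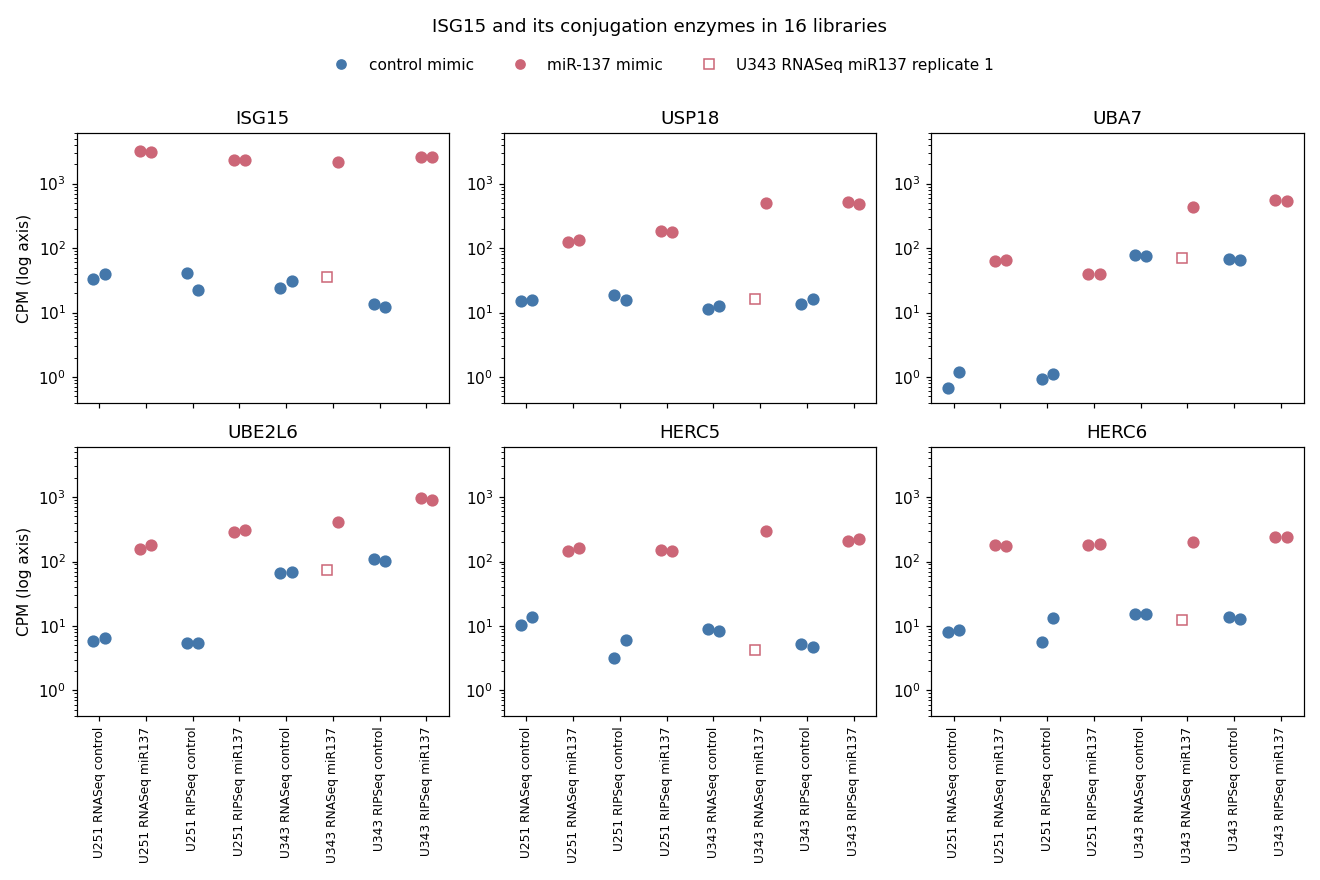
Levels of the 6 genes in CPM on a log axis, 1 point per library, in the 8 groups of cell line, assay and transfection, with blue points for the control mimic and red points for the miR-137 mimic. The open square is U343 RNASeq miR137 replicate 1, which lies much nearer to the controls than to replicate 2 for every gene. ISG15 is there at 35.7 CPM, against 2192 CPM in replicate 2, and HERC5 is at 0.493 of its control mean.

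For ISG15 itself, U251 total RNA held 33.5 and 39.4 CPM in the 2 controls and 3233 and 3061 CPM in the 2 miR137 libraries. U251 PABP-bound RNA held 41.8 and 22.3 CPM in controls and 2317 and 2286 CPM with miR-137. Control and miR137 libraries were far apart in both assays, by a log2 fold change of 6.47 ± 0.20 (SE, n = 2 per group) in RNASeq and 6.05 ± 0.49 in RIPSeq. In U343 the controls of total RNA were at 24.0 and 30.9 CPM, and the miR137 libraries at 35.7 and 2192 CPM. U343 PABP-bound RNA rose from 13.5 and 12.1 CPM to 2605 and 2585 CPM, a log2 fold change of 7.68 ± 0.16. By summed reads this was a 202-fold ratio, with an exact 95% counting interval of 190 to 216. The U343 RNASeq change was 5.36 ± 1.95 with both miR137 libraries and 6.33 ± 0.17 without replicate 1. The 3 miR137 groups other than U343 RNASeq, and replicate 2 of the latter, lay between 2192 and 3233 CPM.

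UBA7, the activating enzyme, was barely read in U251 controls, at 0.67 and 1.18 CPM in total RNA, from 31 reads in both libraries together. It reached 63.7 and 66.0 CPM with miR-137, a log2 change of 6.15 ± 0.22 and a ratio of 69.7 with an exact 95% counting interval of 48.9 to 103. In U251 PABP-bound RNA it went from 0.93 and 1.13 CPM to 39.9 and 40.2 CPM, a change of 5.20 ± 0.29. U343 started from another level. Its UBA7 controls read 78.9 and 76.2 CPM in total RNA and 68.6 and 66.5 CPM in PABP-bound RNA, above every U251 miR137 library. With miR-137 U343 total RNA held 70.5 and 439 CPM, and PABP-bound RNA 559 and 534 CPM, a change of 3.03 ± 0.10 in the latter. In U343 RNASeq replicate 1 fell below both controls, so the groups overlapped, with a change of 1.72 ± 0.88 over both libraries and 2.51 ± 0.09 without it.

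UBE2L6, the E2 enzyme, resembled UBA7 in starting low in U251 and high in U343. In U251 total RNA it read 5.87 and 6.42 CPM in controls and 155 and 179 CPM with miR-137. The PABP-bound values in U251 were 5.51 and 5.53 CPM and then 291 and 304 CPM. The log2 changes were 4.80 ± 0.16 in RNASeq and 5.67 ± 0.28 in RIPSeq, with no overlap between groups. U343 total RNA held 65.8 and 68.6 CPM in controls and 74.9 and 403 CPM with miR-137. U343 PABP-bound RNA held 110.4 and 103 CPM in controls and 974 and 907 CPM with miR-137, a change of 3.16 ± 0.11. Replicate 1 of U343 RNASeq lay just above the controls, and the change was 1.84 ± 0.82 with it and 2.60 ± 0.09 without it.

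HERC5, the main E3 ligase, read 10.3 and 13.8 CPM in the U251 RNASeq controls and 148 and 160 CPM with miR-137, a change of 3.71 ± 0.16. In U251 RIPSeq it read 3.18 and 6.06 CPM and then 149 and 148 CPM, a change of 4.95 ± 0.38. The miR137 levels were thus close in both assays while the PABP-bound controls were lower. In U343 total RNA the controls were at 9.04 and 8.27 CPM and the miR137 libraries at 4.27 and 301 CPM. In U343 PABP-bound RNA, HERC5 went from 5.32 and 4.78 CPM to 212 and 224 CPM, a change of 5.45 ± 0.11. HERC5 was the gene that lay farthest under its controls in U343 RNASeq miR137 replicate 1, at 0.493 of their mean. The change there was 4.16 ± 1.88 over both miR137 libraries and 5.13 ± 0.10 without replicate 1.

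HERC6, its neighbour on chromosome 4, read 8.07 and 8.66 CPM in U251 RNASeq controls and 177 and 173 CPM with miR-137, a change of 4.42 ± 0.15. In U251 RIPSeq the controls were 5.70 and 13.4 CPM and the miR137 libraries 179 and 187 CPM, a change of 4.22 ± 0.45. The HERC6 controls of U251 RIPSeq differed from each other by more than the other control pairs of this gene. U343 total RNA held 15.4 and 15.6 CPM in controls and 12.5 and 198 CPM with miR-137. U343 PABP-bound RNA held 14.0 and 12.9 CPM and then 237 and 237 CPM, a change of 4.15 ± 0.10. The U343 RNASeq groups overlapped because replicate 1 lay under the controls, with a change of 2.78 ± 1.28 and, without it, 3.68 ± 0.08.

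USP18, the enzyme that removes ISG15, changed least of the 6 in U251. Total RNA there held 15.0 and 15.7 CPM in controls and 125 and 133 CPM with miR-137, a change of 3.11 ± 0.14. PABP-bound RNA held 18.6 and 15.8 CPM and then 181 and 177 CPM, a change of 3.29 ± 0.29. In U343 it reached levels well above those of U251 from a similar start. U343 RNASeq gave 11.5 and 12.5 CPM in controls and 16.4 and 505 CPM with miR-137. U343 RIPSeq gave 13.5 and 16.0 CPM and then 513 and 476 CPM, a change of 5.08 ± 0.13. Replicate 1 of U343 RNASeq stayed 1.37-fold above the control mean, and the change was 4.46 ± 1.64 with it and 5.41 ± 0.10 without it.

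**Figure D3:**
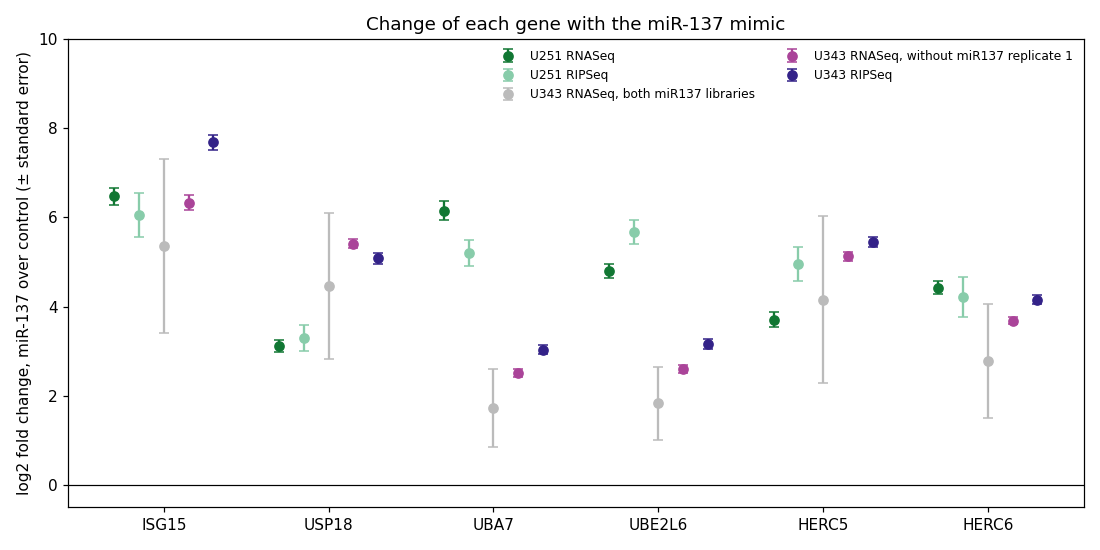
Log2 fold change of miR-137 over control for each gene in each experiment, fitted by edgeR, with bars of 1 standard error. The grey points (U343 RNASeq with both miR137 libraries) have standard errors of 0.82 to 1.95, and the purple points leave out replicate 1. The fold changes of UBA7 and UBE2L6 are larger in U251 than in U343, and that of USP18 is larger in U343.

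Whether the response differed between the lines was examined as an interaction of transfection and cell line, coded as the change in U343 minus that in U251. The set was proposed with the miR-137 response known, and this difference is built from the same contrasts. Its p-values in both assays are therefore descriptive. In PABP-bound RNA 3 of 6 genes passed, 1 higher and 2 lower, where 2.06% of genes tested were higher and 1.22% lower. UBA7 changed less in U343, by -2.12 ± 0.22 on the log2 scale (adjusted p = 0.0098). UBE2L6 also changed less, by -2.46 ± 0.22 (adjusted p = 0.0098). USP18 changed more, by 1.85 ± 0.29 (adjusted p = 0.0254). ISG15 differed by 1.69 ± 0.47 (adjusted p = 0.0958, and 0.0109 with DESeq2), HERC5 by 0.54 with a 95% interval of -0.20 to 1.29, and HERC6 by -0.02 with an interval of -0.95 to 0.91. These calls depended on single libraries, as did the share of all genes called. Without U251 RIPSeq control replicate 1, 6 of 6 passed (33.7% of genes tested), without control replicate 2, 5 passed (52.8%), and without any 1 of the other 6 libraries none passed. In the fits where none of the 6 passed, almost no gene tested was called, so these counts do not describe the 6 genes alone. UBA7, UBE2L6 and USP18 kept their sign in each fit that left out 1 library. UBA7 ran from -2.25 to -2.10, UBE2L6 from -2.63 to -2.40 and USP18 from 1.59 to 2.02.

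In total RNA 2 of 6 passed, both lower in U343, where 12.7% of genes tested were lower and 12.5% higher. UBA7 differed by -4.44 ± 1.12 (adjusted p = 0.0223) and UBE2L6 by -2.97 ± 0.88 (adjusted p = 0.0405). Without U343 RNASeq miR137 replicate 1 the differences were -3.65 ± 0.27 for UBA7 and -2.20 ± 0.20 for UBE2L6, and 5 of 6 passed, 3 lower and 2 higher, against 16.4% lower and 16.3% higher among genes tested. The others that passed then were USP18 (2.30 ± 0.18), HERC5 (1.42 ± 0.21) and HERC6 (-0.74 ± 0.19), and ISG15 was at -0.14 ± 0.25. Without replicate 2 instead, the 6 differences were all negative, from -6.35 for UBA7 to -2.71 for USP18. The calls of the full fit depended on single libraries. With any 1 library left out, UBA7 stayed at or below -3.65 and UBE2L6 at or below -2.20.

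The starting levels were compared between lines in the RNASeq controls, where 6 of 6 genes passed and 84.8% of all genes tested did too, so that the sizes matter more than the calls. As the 6 genes were chosen with earlier results of these data known, p-values between lines are descriptive after either transfection. UBA7 was higher in U343 by 6.39 ± 0.18 on the log2 scale (adjusted p = 8.11e-09), an 83.8-fold difference. UBE2L6 was higher by 3.46 ± 0.11 (adjusted p = 1.83e-08) and HERC6 by 0.90 ± 0.13 (adjusted p = 0.000188). ISG15 (-0.40 ± 0.14), USP18 (-0.34 ± 0.13) and HERC5 (-0.47 ± 0.17) were lower in U343. The last 3 calls were lost with upper-quartile normalization, without U251 control replicate 2 and without U343 control replicate 1. DESeq2 lost those of USP18 and HERC5. The median over all genes tested was 0.10 with TMM and 0.21 with upper-quartile normalization.

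Between the miR137 RNASeq libraries of the lines, edgeR called none of the 6 (1, UBA7, passed before adjustment, and DESeq2 called none), where 71.4% of genes tested were called. Without U343 miR137 replicate 1, 5 passed, against 76.7% of genes. UBA7 was then higher in U343 by 2.77 ± 0.18, USP18 by 1.98 ± 0.19, UBE2L6 by 1.29 ± 0.19 and HERC5 by 0.98 ± 0.18. ISG15 was lower by -0.51 ± 0.22 (adjusted p = 0.0495). HERC6 differed by 0.19 ± 0.19. Without replicate 2 instead, UBA7 was at 0.11 and the others were lower in U343, from -6.47 for ISG15 to -1.17 for UBE2L6. The UBA7 difference between lines in total RNA was thus 6.39 with the control mimic and 2.77 with miR-137, the latter without U343 miR137 replicate 1.

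The reads of the set divided differently in the lines, as shown by the share of the 6 genes' reads that fell on each, which mixes level with transcript length. In U251 RNASeq, ISG15 took 45.7% and 46.3% of these reads in controls and 82.9% and 81.2% with miR-137. In U343 RIPSeq it took 5.99% and 5.61% in controls and 51.1% and 52.1% with miR-137. Its share was larger with miR-137 in both experiments, and in U343 RIPSeq UBE2L6 lost the most percentage points. UBE2L6 went from 49.0% and 47.9% of the reads in U343 RIPSeq controls to 19.1% and 18.3%. UBA7 went from 30.4% and 30.9% to 11.0% and 10.8%. In U343 RNASeq the ISG15 share was 11.7% and 14.6% in controls, 16.7% in miR137 replicate 1 and 54.3% in replicate 2. Replicate 1 was thus much nearer to the controls than to replicate 2, but not equal to them. Its HERC5 share was 1.99%, against 4.42% and 3.90% in the controls, and its UBA7 share 32.9%, against 38.6% and 35.9%. For each of the 6 genes its share lay outside both RNASeq controls. Exact 95% counting intervals leave out the spread between libraries. Those of the 2 controls did not overlap each other for ISG15 (11.1 to 12.4% and 13.8 to 15.4%). Nor did they for UBA7 (37.6 to 39.5% and 34.9 to 37.0%). Whether replicate 1 differed from the controls beyond that spread was not tested.

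**Figure D4:**
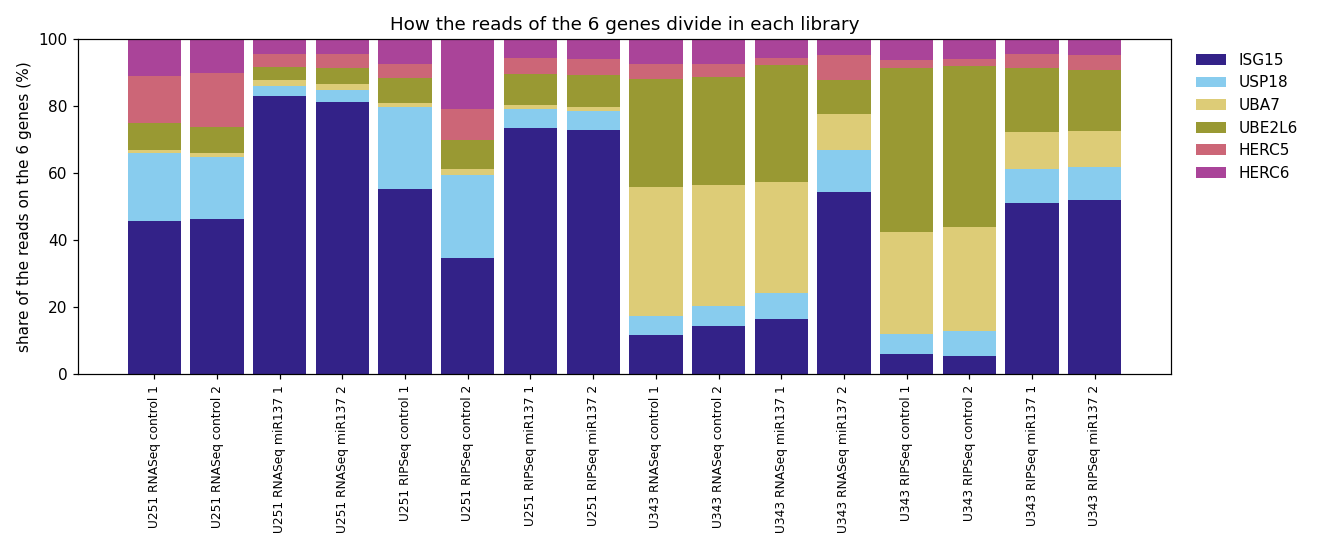
Stacked bars give the percentage of the reads on the 6 genes that fell on each gene, in each of the 16 libraries (group and replicate number on the horizontal axis). ISG15 fills most of the U251 miR137 bars (72.8 to 82.9%), UBA7 and UBE2L6 fill most of the U343 control bars, and in U343 RNASeq miR137 replicate 1 ISG15 fills 16.7%, above the RNASeq controls (11.7% and 14.6%) and far below replicate 2 (54.3%).

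PABP-bound RNA was then compared with total RNA, relative to the average gene, in each group. Because earlier results of these data were known when the 6 genes were chosen, the p-values of this comparison are descriptive as well. In U343 controls 4 of 6 genes passed, where 48.6% of genes tested did. ISG15 was lower among PABP-bound RNA by -1.15 ± 0.14 (adjusted p = 0.00051), HERC5 by -0.82 ± 0.13 (adjusted p = 0.00186) and UBA7 by -0.25 ± 0.07 (adjusted p = 0.0244). UBE2L6 was higher by 0.62 ± 0.08 (adjusted p = 0.000564). The UBA7 call was lost without any 1 of the 4 libraries. USP18 was at 0.26 with a 95% interval of -0.02 to 0.53, and HERC6 at -0.25 with an interval of -0.48 to -0.02.

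In U251 miR137 cells 4 of 6 passed, near the 65.9% of all genes tested that did, so the sizes matter more than the calls. UBE2L6 was again higher among PABP-bound RNA, by 0.80 ± 0.09 (adjusted p = 0.000106), and USP18 was higher by 0.44 ± 0.08 (adjusted p = 0.0016). UBA7 was lower by -0.73 ± 0.08 (adjusted p = 9.32e-05) and ISG15 by -0.48 ± 0.09 (adjusted p = 0.00139). The USP18 call was lost without U251 RIPSeq miR137 replicate 1 (adjusted p = 0.0575). HERC5 and HERC6 were at -0.08 and 0.03, with 95% intervals of -0.27 to 0.11 and -0.16 to 0.22.

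In U251 controls edgeR called none of the 6, where 14.0% of genes tested were called, though HERC5 passed before adjustment at -1.29 ± 0.36 (adjusted p = 0.059). DESeq2 called 1, against 15.5% of genes. The 2 PABP-bound control libraries were far apart. Without the first, 3 passed, with ISG15 at -0.72, HERC5 at -1.0 and HERC6 at 0.66. Without the second, 3 passed, with ISG15 at 0.38, USP18 at 0.46 and HERC5 at -1.73. HERC5 kept its direction while ISG15 changed sign, and 54.9% and 75.9% of genes tested were called in these fits. In U343 miR137 cells edgeR called none (none before adjustment, none by DESeq2), where 18.1% of genes were called. Without RNASeq replicate 1, UBE2L6 (1.18 ± 0.17, adjusted p = 0.0125) and HERC5 (-0.51 ± 0.12, adjusted p = 0.0375) passed, against 28.4% of genes. Without RNASeq replicate 2, the 6 values were all above 0, between 2.95 for UBA7 and 6.18 for ISG15.

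**Figure D5:**
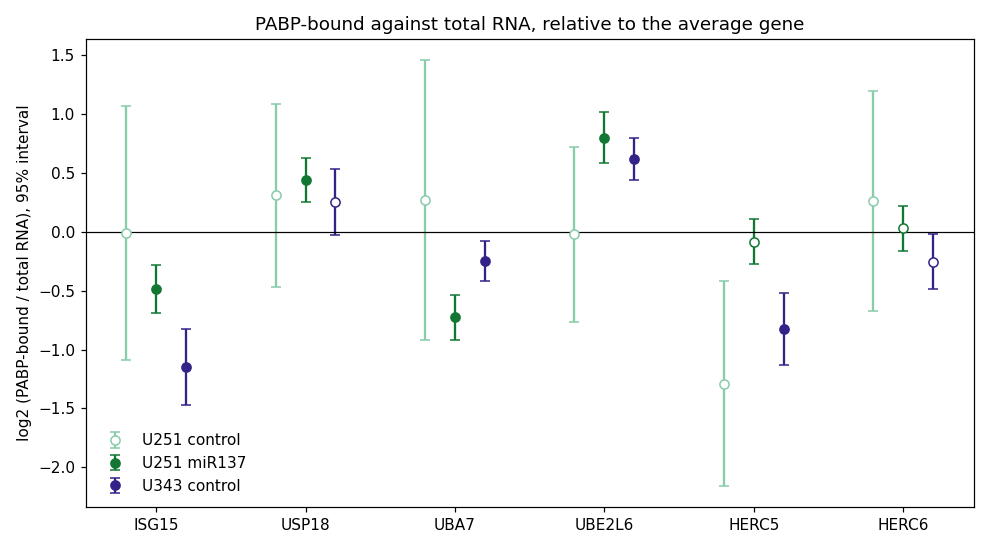
Log2 ratio of PABP-bound to total RNA for each gene in the 3 groups that do not use U343 RNASeq miR137 replicate 1, with 95% intervals, as filled points where the adjusted p was under 0.05. UBE2L6 lies above 0 in U251 miR137 (0.80) and U343 control (0.62), ISG15 below 0 in the same groups, and the U251 control intervals are wide.

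The change with miR-137 was also compared between assays, coded as the change in RIPSeq minus that in RNASeq. As this difference also uses the miR-137 contrasts, its p-values are descriptive too. In U251 edgeR called none of the 6, where 0.134% of genes tested were called, while 3 passed before adjustment and DESeq2 called none. These were HERC5 at 1.20 ± 0.37 (adjusted p = 0.169), UBE2L6 at 0.82 ± 0.28 (adjusted p = 0.199) and UBA7 at -1.0 ± 0.37 (adjusted p = 0.217). Without either RIPSeq control 3 passed, HERC5 and UBE2L6 being among them both times, against 20.1% and 58.0% of genes. In U343 none was called by either tool or before adjustment, against 0.00649% of genes, and the largest difference was ISG15 at 2.32 ± 1.87. Without RNASeq miR137 replicate 1, ISG15 was at 1.34 ± 0.22 (adjusted p = 0.0607) and none passed, against 0.191% of genes. Without replicate 2 instead, the 6 differences ran from 3.02 for UBE2L6 to 7.33 for ISG15.

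Other genes of the pathway were taken from lists chosen for function. The counts of calls below stand against the shares of all genes tested, of which 28.7%, 0.944%, 8.31% and 28.5% were called higher with miR-137 in U251 RNASeq, U251 RIPSeq, U343 RNASeq and U343 RIPSeq, and 29.0%, 0.263%, 11.7% and 27.8% lower. Without U343 RNASeq miR137 replicate 1 the shares there were 19.3% higher and 20.3% lower. IRF9 and STAT2, which carry interferon signals to the nucleus, were called higher with miR-137 in U251 RNASeq, U251 RIPSeq and U343 RIPSeq. IRF9 changed by 4.72, 4.92 and 4.13 in that order, and STAT2 by 1.81, 2.50 and 2.46. In U343 RNASeq neither was called with both miR137 libraries, at 3.39 for IRF9 and 1.75 for STAT2. Without replicate 1 both were called, at 4.18 for IRF9 and 2.48 for STAT2.

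Of the 6 other ISG15 ligases and HERC relatives tested, 2 were called higher in U251 RNASeq, none in U251 RIPSeq, 1 lower in U343 RNASeq, and 2 higher and 2 lower in U343 RIPSeq. The 2 of 6 higher in U251 RNASeq and U343 RIPSeq were near the shares of all genes, 28.7% and 28.5%. TRIM25, a ligase that acts in antiviral RNA sensing and has been linked to ISG15, was higher in U251 RNASeq (1.32) and U343 RIPSeq (2.26). It was at 0.84 in U251 RIPSeq and, with both libraries, at 1.89 in U343 RNASeq, where it read 31.3 and 332 CPM against 48.7 and 50.2 CPM in controls. ARIH1 was higher in U343 RIPSeq only (0.65), and did not pass at -0.15, 0.28 and 0.29 in U251 RNASeq, U251 RIPSeq and U343 RNASeq. The medians of this list were -0.10, 0.16, -0.16 and -0.21 in U251 RNASeq, U251 RIPSeq, U343 RNASeq and U343 RIPSeq. Without U343 RNASeq miR137 replicate 1, 1 gene of the list was higher (TRIM25, 2.76) and 2 were lower.

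Of the 9 E1 enzymes of other modifiers tested, 4 were lower in U251 RNASeq, none passed in U251 RIPSeq, 3 were lower in U343 RNASeq, and 5 were lower and 3 higher in U343 RIPSeq. The background of lower calls was 29.0%, 0.263%, 11.7% and 27.8% in that order. UBA3 was lower by -1.21 in U251 RNASeq, -1.40 in U343 RNASeq and -1.56 in U343 RIPSeq. Its partner NAE1 was lower by -0.74, -0.69 and -0.77, and UBA2, of the SUMO pathway, by -0.62, -0.56 and -0.44. Each of these was below the controls in both U343 RNASeq miR137 libraries. They are named because they were called in at least 3 of the 4 miR-137 comparisons, U343 RNASeq among them. Their low level in that group therefore followed in part from the choice. UBA1, the main ubiquitin E1, passed in none, at -0.07, -0.44, 0.20 and -0.02. Without replicate 1, 5 were lower and 1 higher in U343 RNASeq.

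Of the 10 E2 enzymes, 1 was higher and 3 lower in U251 RNASeq, none passed in U251 RIPSeq, 1 was higher and 1 lower in U343 RNASeq, and 3 were lower in U343 RIPSeq. The 3 of 10 lower in U251 RNASeq and U343 RIPSeq were near the shares of all genes, 29.0% and 27.8%. UBE2L3, the closest relative of UBE2L6, was lower in U251 RNASeq (-0.56) and was at -0.37, -0.02 and -0.18 elsewhere. UBE2E3 was higher in U251 RNASeq (1.39) and lower in U343 RNASeq (-0.51) and RIPSeq (-0.80). Of 12 ubiquitin and ubiquitin-like modifier genes tested, 5 were lower in U251 RNASeq, none passed in U251 RIPSeq, 1 was higher in U343 RNASeq, and 2 were higher and 2 lower in U343 RIPSeq. UFM1 was lower in U251 RNASeq (-0.32) and higher in U343 RNASeq (0.82) and RIPSeq (0.79). Of 5 other proteases, 2 were higher and 1 lower in U251 RNASeq, none passed in U251 RIPSeq, 1 was lower in U343 RNASeq, and 1 was higher and 2 lower in U343 RIPSeq. Without U343 RNASeq replicate 1, the E2 enzymes had 1 higher and 2 lower, the modifiers 1 higher and the proteases 1 lower, where 19.3% of all genes were higher and 20.3% lower.

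Of the genes that act with USP18 or receive free ISG15, SKP2 was lower in U251 RNASeq (-1.68), U343 RNASeq (-1.35, and -1.51 without replicate 1) and U343 RIPSeq (-1.16). Of this list, which also holds STAT2, 1 was higher and 2 lower in U251 RNASeq (of 4 tested), 1 higher in U251 RIPSeq (of 5), 1 lower in U343 RNASeq (of 6), and 1 higher and 2 lower in U343 RIPSeq (of 6). Of all genes, 28.7% were higher and 29.0% lower in U251 RNASeq, 0.944% higher in U251 RIPSeq, 11.7% lower in U343 RNASeq, and 28.5% higher and 27.8% lower in U343 RIPSeq. Without U343 RNASeq replicate 1, 1 was higher and 2 lower. IFNAR2, the receptor chain that USP18 binds, passed in none, at 0.23, -0.07, -0.16 and -0.28. IFNAR1, the other chain of that receptor, was lower in U251 RNASeq (-0.50) and U343 RIPSeq (-0.99), and was at -0.18 in U251 RIPSeq and -0.43 in U343 RNASeq. It read 41.2 and 42.1 CPM in U343 RIPSeq controls and 20.6 and 20.8 CPM with miR-137. In U343 RNASeq it read 39.1 and 35.7 CPM in controls and 35.7 and 20.6 CPM with miR-137, and it was lower (-0.85) without replicate 1.

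The genes most like each of the 6 across the 16 libraries were found by the root mean square difference of centred log2 CPM, among 13268 genes, as a description in which every point shares its library with the set. HERC5 was closest to IFIH1 (0.30), a sensor of double-stranded RNA, and then to TNFSF10 (0.58) and TLR3 (0.62). HERC6 was closest to TLR3 (0.31), OAS3 (0.49) and PLSCR1 (0.50). ISG15 was closest to DDX58 (0.79), ISG20 (0.81) and CMPK2 (0.89). USP18 was closest to PRIC285 (0.60) and PARP12 (0.62) among the genes reported here. UBE2L6 was closest to TRIM22 (0.58), IFI35 (0.59) and APOL3 (0.62), and UBA7 to APOL1 (0.64), RARRES3 (0.67) and CASP1 (0.74). Within the set, HERC5 and HERC6 differed by 0.68 and USP18 and HERC6 by 0.67, whereas ISG15 and UBA7 differed by 3.17.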

How the data were processed

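Per the methods, the authors aligned reads to hg18 with RMAP and deposited whole-number counts of reads per RefSeq gene, with no normalization. The methods mention a further U251 replicate, which was not analysed here. The U251 counts list 1 symbol on 2 lines, of which the first was kept. Each library's label gave its cell line, assay and transfection, and thereby its group.

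From these counts, edgeR 4.0.16 in R 4.3.3 (quasi-likelihood F test, TMM, filterByExpr, Benjamini-Hochberg adjustment over all genes tested, threshold 0.05) was run on the libraries of each comparison, and standard errors are the log2 change over the square root of F. DESeq2 1.42.0, other normalizations and filters, a replicate block, a joint fit and the exclusion of each library were alternatives. The study's rule was also applied, by Fisher's exact test in each of the 4 pairs of libraries, requiring an odds ratio above 2 with adjusted p below 0.001, and mirrored for rises. The scripts were tested on simulated data. The 6 genes and the lists were chosen with earlier results of these data known. Named in addition were the 3 genes most like each of the 6, TRIM25, ARIH1, UBE2L3, UBA1 and list genes called in at least 3 of the 4 miR-137 comparisons. IFNAR1, IFNAR2 and CD68 were named after their values were seen. Some genes of these lists are not reported here. USP41, UBD, AIF1 and RBFOX3 were not analysed here. Promoter and miRNA sequences are those of RefSeq for GRCh38.p14. Reads carry no molecular identifiers, so intervals on read shares and ratios cover counting error only.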

Additional observations from a re-analysis of the deposited data

Results flagged for a closer look

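The response to the miR-137 mimic differed between U343 and U251 for 5 results, each by the interaction term of edgeR's quasi-likelihood test (change in U343 minus change in U251, log2 scale). The set was proposed with this response known, so these p-values are descriptive. In RIPSeq, UBA7 differed by -2.12 (adjusted p = 0.0098), UBE2L6 by -2.46 (adjusted p = 0.0098) and USP18 by 1.85 (adjusted p = 0.0254). In RNASeq, UBA7 differed by -4.44 (adjusted p = 0.0223) and UBE2L6 by -2.97 (adjusted p = 0.0405). In all 8 RIPSeq libraries UBA7 and UBE2L6 were higher in U343 than in U251 after the same transfection. In RNASeq the same order held for UBA7 in all 8 libraries, while UBE2L6 in U343 miR137 replicate 1 (74.9 CPM) lay under both U251 miR137 libraries (155 and 179 CPM). Over the alternatives, the adjusted p ranged up to 0.0891 for UBA7 and 0.132 for UBE2L6 in RNASeq, and up to 0.144 for UBA7, 0.102 for UBE2L6 and 0.198 for USP18 in RIPSeq, the highest values coming from fits that left out 1 library. The cell line and the library method cannot be told apart in these differences.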

How the results depend on the processing

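Of the 14 comparisons, the calls on the 6 genes for miR-137 against control in U251 RNASeq, U251 RIPSeq and U343 RIPSeq were 6 of 6 in each fit that left out 1 library, which describes the contrast the set was chosen on. Other alternatives moved few counts of genes called. DESeq2 called 2 of 6 in U343 RNASeq (ISG15 and USP18), where it called 9.56% of genes higher. The joint fit of the 8 U343 libraries called 2, against 14.7% of genes higher. There edgeR on the 4 libraries called 0, against 8.31%. For PABP-bound against total RNA in U251 controls DESeq2 called 1 (HERC5), against 15.5% of genes, with a median log2 value over all genes of 0.36 against -0.01. Upper-quartile normalization left 3 of 6 called in U343 against U251 controls, where 84.4% of genes were called. Without a filter on low counts, HERC5 and HERC6 no longer passed in U251 RIPSeq, where 0.298% of genes then passed. HERC6 passed for PABP-bound against total RNA in U343 controls with upper-quartile normalization (-0.28), where 48.7% of genes passed. The count of all genes called in U251 RIPSeq was 170, and it was 9741 without control replicate 1 and 11670 without control replicate 2. With 1 library left out, the number of the 6 genes called ranged from 0 to 6 for miR-137 against control in U343 RNASeq, for both differences between lines, for the difference between assays in U343 and for PABP-bound against total RNA in U343 miR137 cells. It ranged from 0 to 3 for the difference between assays in U251 and for PABP-bound against total RNA in U251 controls, from 3 to 6 for U343 against U251 controls and from 0 to 5 for U343 against U251 miR137 cells. The highest counts came without U343 RNASeq miR137 replicate 1 or 2 where that group was compared, and without a U251 RIPSeq control where those were compared. The share of all genes called also moved between these fits, so the ranges do not describe the 6 genes alone. The cause was not tested.

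The sign of the log2 values named here changed when 1 library was left out, and each is given as its lowest and highest value. In miR-137 against control in U343 RNASeq, the value ran for HERC5 from -1.07 to 5.13, HERC6 from -0.36 to 3.68 and UBA7 from -0.19 to 2.51. In the difference between lines in RNASeq, the value ran for HERC5 from -4.78 to 1.42 and USP18 from -2.71 to 2.30. In the difference between lines in RIPSeq, the value ran for HERC6 from -0.65 to 0.38. In the difference between assays in U251, the value ran for HERC6 from -0.56 to 0.42 and ISG15 from -0.84 to 0.31. In the difference between assays in U343, the value ran for USP18 from -0.33 to 4.66. In PABP-bound against total RNA in U251 controls, the value ran for HERC6 from -0.36 to 0.66, ISG15 from -0.72 to 0.38, UBA7 from -0.19 to 0.60 and UBE2L6 from -0.21 to 0.031. In PABP-bound against total RNA in U251 miR137 cells, the value ran for HERC6 from -0.012 to 0.068. In PABP-bound against total RNA in U343 miR137 cells, the value ran for HERC5 from -0.51 to 5.67 and USP18 from -0.077 to 4.91. In U343 against U251 miR137 RNASeq, the value ran for HERC5 from -5.18 to 0.98, HERC6 from -3.82 to 0.19, UBE2L6 from -1.17 to 1.29 and USP18 from -2.99 to 1.98. The sign also changed under other settings for values near 0. With upper-quartile normalization these were HERC6 at 0.012 for the difference between lines in RIPSeq, USP18 at -0.032 for the difference between assays in U251, and ISG15 at 0.12 and UBE2L6 at 0.077 for PABP-bound against total RNA in U251 controls, and HERC6 at -0.031 in U251 miR137 cells. With a filter of 50 reads on average they were HERC6 at 0.011 for the first, ISG15 at 0.040 and UBE2L6 at 0.010 for the controls and HERC6 at -0.018 for the miR137 cells. For U343 against U251 miR137 RNASeq, HERC5 was at 0.014 with DESeq2 and 0.092 with no filter.

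Groups share the replicate numbers 1 and 2, which the labels do not tie to a shared day or culture. With 2 pairs per comparison, the deviations of same-numbered libraries correlated between -0.20 and 0.28 over genes. With the replicate number as a block, 1 of 6 genes was called for PABP-bound against total RNA in U251 controls (30.5% of genes tested). For U343 against U251 miR137 RNASeq 1 was called (69.9%). The call on USP18 in the difference between lines in RIPSeq was lost, HERC5 turned to -0.32 in that difference in RNASeq, and USP18 turned to -0.51 in U343 against U251 miR137 RNASeq. For PABP-bound against total RNA in U343 controls, where the correlation was -0.20, the crossed pairing was added after seeing the data and called 4 of 6 genes and 8069 of all genes, against 7231 without a block.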
